A study of Homo sapiens with 18 samples.

Results

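The genes described here encode the death receptors FAS and the TRAIL receptors, their ligands, and the proteins that join them to caspase-8. They were chosen by gene symbol, 10 of the 58395 genes in the deposited tables: FASLG, TNFSF10, FAS, TNFRSF10A, TNFRSF10B, TNFRSF10D, FADD, CASP8, CASP10 and CFLAR. RNA-seq was performed on the human ovarian cancer line HeyA8 and the human prostate cancer line PC3 after transfection for 48 h with a short RNA at 10 nM. The control was sNT8, and the RNAs set against it were sG5C and sCAG, so that there were 6 groups of 3 libraries, A to C, and every group had received a transfected short RNA. The titles of the sG5C libraries read Mxy and their treatment label reads sG5C, and the treatment label was followed. The series title concerns short RNAs that bring about DISE, a form of cell death that was first tied to the FAS and FASLG genes.

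In this pathway a ligand on another cell, FAS ligand or TRAIL, binds its receptor, and the clustered receptors recruit the adaptor FADD through their death domains. FADD gathers procaspase-8 and procaspase-10, which activate each other by proximity and cleave the effector caspases and BID. The pathway is held back by decoy receptors, which bind TRAIL without a working death domain, and by c-FLIP, the product of CFLAR, which takes the place of caspase-8 on FADD.

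Library totals ran from 31232377 to 41384838 reads, and levels are given as RPM, reads scaled to a library total of 1000000. Folds and log2 fold changes against sNT8 come from limma on the values as scaled by the authors, and therefore need not equal a ratio of RPM. Adjusted p-values are Benjamini-Hochberg values over every gene tested. The labels do not say that the 3 libraries of a group were separate cultures, so p-values measure only the spread between these libraries. Both treated groups of a line were set against the same 3 sNT8 libraries. In these bulk libraries, fewer cells expressing a gene and less RNA per cell cannot be told apart. The epithelial keratin gene KRT8 reached 1038 RPM in HeyA8 and 94.1 in PC3. PAX8, an ovarian lineage marker, reached 405.9 RPM in HeyA8, and HOXB13, a prostate lineage marker, reached 258.9 in PC3. KLK3 was listed at 0 everywhere, and EPCAM reached only 1.02 RPM in HeyA8. The 7 leukocyte markers summed to 0.115 to 1.12 RPM per library, none with a mean of 1 RPM in any group. The 4 endothelial markers, mostly CDH5 in HeyA8, summed there to 73.0 to 77.8 RPM with sNT8, 62.2 to 63.7 with sG5C and 17.3 to 18.6 with sCAG. The 5 fibroblast markers, mostly COL1A1, summed to 23.9 to 26.9, 4.67 to 7.04 and 144.4 to 157.0 RPM in the same groups, with DCN and LUM at or below 0.132. In PC3 the endothelial sums were 97.5 to 114.2, 66.8 to 77.5 and 117.4 to 143.7 RPM and the fibroblast sums 17.7 to 23.6, 5.48 to 5.83 and 9.33 to 11.0. The 5 epithelial markers summed to 899.7 to 994.6 RPM with sNT8, 386.0 to 418.4 with sG5C and 1243 to 1332 with sCAG in HeyA8, and to 511.9 to 554.8, 589.4 to 657.1 and 686.2 to 704.0 in PC3. The 4 ovarian markers in HeyA8 summed to 361.1 to 374.1, 151.0 to 168.7 and 375.7 to 433.6 RPM, and HOXB13 in PC3 had means of 247.4, 44.2 and 208.4. The lineage markers were thus lowest with sG5C in both lines. The part of these shifts in the results was not tested.

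After sCAG, FAS, TNFRSF10B and CFLAR rose in both lines. TNFSF10, CASP8, CASP10 and TNFRSF10A also rose in PC3, while in HeyA8 TNFRSF10D rose and TNFRSF10A fell slightly. After sG5C, FAS fell in both lines. The TRAIL receptor genes TNFRSF10A and TNFRSF10B rose in HeyA8 and fell in PC3, and CASP8 and TNFSF10 rose in PC3. TNFRSF10D rose in HeyA8, as it did after sCAG. CASP10 fell in both lines, and FADD rose in HeyA8 and fell in PC3. Both FADD calls and the CASP10 call in HeyA8 were lost in some fits that left out a library. Of the 8 members tested in each comparison, 5 passed in HeyA8 after sCAG, where 59.3% of all genes did, and 6 passed in HeyA8 after sG5C, where 52.5% did. In PC3, 7 of 8 passed after sCAG, against 50.5% of all genes, and 7 of 8 after sG5C, against 57.9%. All 7 members called in PC3 after sCAG were higher, 7 of the 8 tested, where 27.4% of all genes tested were called higher. Of the 11689 genes called there, 6344 were higher. The members' median log2 fold change there was 0.92, against 0.00 for all genes. It was 0.45 in HeyA8 after sCAG, 0.17 in HeyA8 after sG5C and -0.41 in PC3 after sG5C. The members not tested were FASLG in both lines, TNFSF10 in HeyA8 and TNFRSF10D in PC3, which had too few reads.

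**Figure D1:**
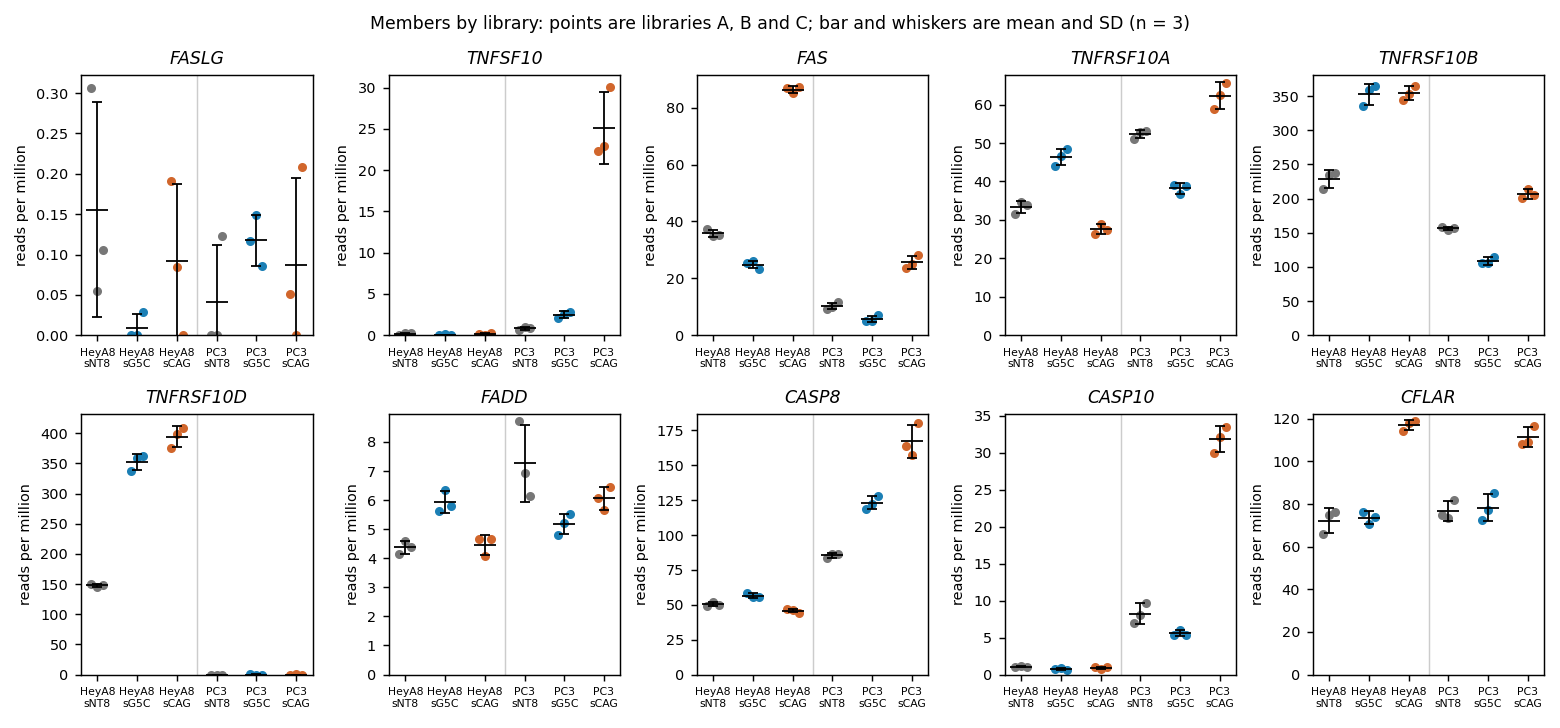
Level of each of the 10 genes in RPM (vertical axis, from 0, scaled separately for each gene) in the 6 groups (horizontal axis). Points are libraries A to C, and the bar and whiskers are the mean and SD. FAS is highest in HeyA8 with sCAG (86.3 RPM), TNFSF10 and CASP10 in PC3 with sCAG (25.1 and 31.8 RPM), and TNFRSF10D is near 0 in PC3.

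**Figure D2:**
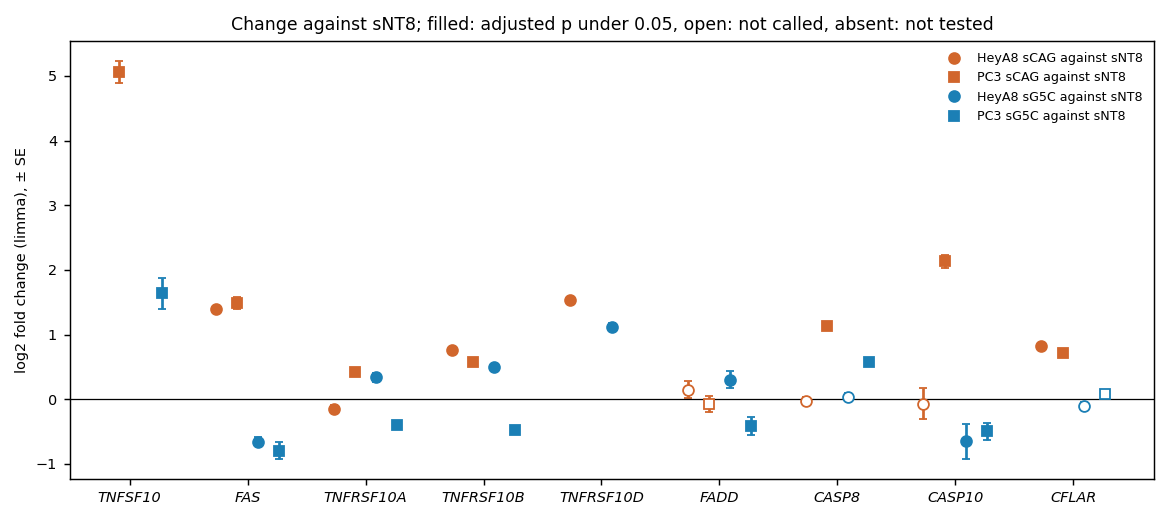
Log2 fold change of each member against sNT8 with its SE from limma (vertical axis) for sCAG and sG5C in HeyA8 and PC3. Filled symbols have an adjusted p under 0.05, and members not tested are absent. FAS lies above 0 after sCAG (1.39 and 1.48) and below 0 after sG5C (-0.66 and -0.79) in both lines.

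Of the ligand genes, FASLG (ENSG00000117560, chromosome 1, 172659018 to 172666874, plus strand, hg38), which encodes FAS ligand, was hardly read in any group. It had 0 to 12 reads per library, and the highest value was 0.306 RPM, in HeyA8 sNT8 library A. In HeyA8 the sNT8 libraries had 12, 2 and 4 reads and the sG5C libraries 0, 0 and 1, without overlap. FASLG fell below the read filter of the tests, so no call is given for it.

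TNFSF10 (ENSG00000121858, chromosome 3, 172505508 to 172523507, minus strand) encodes TRAIL, and it is known as a gene that interferon can induce. In HeyA8 it had 0 to 10 reads per library. In PC3 the sNT8 libraries had 0.601, 1.02 and 0.864 RPM, from 21 to 32 reads. With sG5C they had 2.11, 2.53 and 2.87 RPM, and with sCAG 22.3, 22.9 and 30.1 RPM. The 3 PC3 groups did not overlap. TNFSF10 was 33.3-fold higher with sCAG than with sNT8 (log2 fold change 5.06 ± 0.18, SE; limma adjusted p = 2.2e-14). With sG5C it was 3.11-fold higher (1.63 ± 0.24, SE; limma adjusted p = 9.42e-07). Set directly against each other with edgeR, sCAG gave 10.9-fold more than sG5C (log2 3.44 ± 0.14, SE; adjusted p = 1.12e-18).

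The promoters of TNFSF10 and CASP8, the members named for their rise in PC3 with both short RNAs, are shown with that of FAS, which moved the same way in both lines. Each holds the 250 bases before the first transcript start that RefSeq (GRCh38.p14) lists for the gene and the 30 bases from it, 5′ to 3′ on the gene's strand. Those starts lie 77, 20 and 216 bases inside the gene bounds given here for TNFSF10, CASP8 and FAS. Capitals mark matches, on either strand, to the core of the interferon-stimulated response element, GAAANNGAA (TTCNNTTTC on the other strand), and to the gamma-activated site, TTCNNNGAA. The windows are chr3:172523401-172523680 on the minus strand, chr2:201233213-201233492 on the plus strand and chr10:88990548-88990827 on the plus strand.
TNFSF10: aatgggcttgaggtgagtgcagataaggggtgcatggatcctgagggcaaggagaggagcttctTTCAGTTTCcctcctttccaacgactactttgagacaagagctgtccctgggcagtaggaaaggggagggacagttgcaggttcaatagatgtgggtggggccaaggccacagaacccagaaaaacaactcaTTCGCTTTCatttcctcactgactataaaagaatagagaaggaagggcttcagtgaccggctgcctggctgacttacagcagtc
CASP8: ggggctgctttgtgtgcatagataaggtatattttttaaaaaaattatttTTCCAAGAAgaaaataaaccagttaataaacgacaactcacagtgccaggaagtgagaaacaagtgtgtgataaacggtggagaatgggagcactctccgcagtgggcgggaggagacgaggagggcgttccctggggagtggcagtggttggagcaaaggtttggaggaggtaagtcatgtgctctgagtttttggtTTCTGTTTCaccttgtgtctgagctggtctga
FAS: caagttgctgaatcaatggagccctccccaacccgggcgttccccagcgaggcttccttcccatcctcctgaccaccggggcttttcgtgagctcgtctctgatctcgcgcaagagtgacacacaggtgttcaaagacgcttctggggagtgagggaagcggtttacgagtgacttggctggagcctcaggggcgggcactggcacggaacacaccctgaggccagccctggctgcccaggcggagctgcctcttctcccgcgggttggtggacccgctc
In the full windows, which run to 50 bases after the start, TNFSF10 had 2 matches to the first motif, beginning at positions -186 and -54, with that transcript start as 0. CASP8 had 1 such match, at -2, and 1 match to TTCNNNGAA, at -200. FASLG had 1 match to GAAANNGAA, at -72, and FAS, FADD and CFLAR had no match to either motif there. RefSeq lists 3 starts for FAS, 3 for CASP8 and 4 for CFLAR, and of the windows at the later starts 1 held a match, to GAAANNGAA at the third start of CFLAR. Of 35116 promoters of that length, 8.11% held GAAANNGAA and 7.66% held TTCNNNGAA. These matches are a description of the letters and not of binding. No promoter sequence was used for CASP10, TNFRSF10A, TNFRSF10B or TNFRSF10D.

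FAS (ENSG00000026103, chromosome 10, 88990582 to 89015785, plus strand) encodes the receptor of FAS ligand and is a known p53 target gene. In HeyA8 the sNT8 libraries had 37.2, 34.7 and 35.3 RPM. The sG5C libraries had 25.2, 26.0 and 23.4 RPM and the sCAG libraries 86.8, 85.0 and 87.2. The 3 groups were apart, with sG5C lowest and sCAG highest. In PC3 the same order was seen, with 9.31, 10.0 and 11.5 RPM with sNT8. The PC3 sG5C libraries had 5.01, 5.16 and 7.06 RPM and the sCAG libraries 23.7, 24.9 and 28.2.

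After sCAG, FAS was 2.62-fold higher in HeyA8 (log2 1.39 ± 0.05, SE; limma adjusted p = 6.77e-18) and 2.80-fold higher in PC3 (1.48 ± 0.09, SE; limma adjusted p = 1.89e-12). After sG5C it was 1.58-fold lower in HeyA8 (-0.66 ± 0.07, SE; limma adjusted p = 4.59e-09) and 1.73-fold lower in PC3 (-0.79 ± 0.13, SE; limma adjusted p = 4.67e-06). The gap between the short RNAs was therefore wider than either change alone. By edgeR, FAS was 4.13-fold higher with sCAG than with sG5C in HeyA8 (log2 2.04 ± 0.06, SE; adjusted p = 2.37e-25). In PC3 it was 4.83-fold higher (2.27 ± 0.11, SE; edgeR adjusted p = 2.81e-17).

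Across the 6 groups the mean FAS level ran from 5.74 RPM in PC3 sG5C to 10.3 in PC3 sNT8, 24.9 in HeyA8 sG5C, 25.6 in PC3 sCAG, 35.8 in HeyA8 sNT8 and 86.3 in HeyA8 sCAG. The neighbours HeyA8 sG5C and PC3 sCAG overlapped, so FAS in PC3 with sCAG was at about the level of HeyA8 with sG5C. FAS shares 380 of its exon bases, 8.93%, with ACTA2 on the opposite strand. ACTA2 had 33 to 745 reads per library, 22.8% of the FAS reads over all libraries. As no strand setting is given, reads in that stretch cannot be assigned to either gene.

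TNFRSF10A (ENSG00000104689, chromosome 8, 23190452 to 23225126, minus strand) and TNFRSF10B (ENSG00000120889, chromosome 8, 23020133 to 23069179, minus strand) encode the TRAIL receptors with a working death domain, DR4 and DR5. TNFRSF10B is a known target of p53 and of the endoplasmic reticulum stress factor CHOP. In HeyA8 the TNFRSF10B libraries had 214.0, 235.1 and 236.9 RPM with sNT8. They had 335.1, 358.5 and 364.7 RPM with sG5C and 344.6, 353.0 and 365.1 with sCAG. Both treated groups lay above sNT8 and overlapped each other on this scale. In PC3 the values were 158.0, 153.6 and 157.3 RPM with sNT8. They were 105.2, 105.9 and 114.7 with sG5C, below all sNT8 libraries, and 200.8, 214.1 and 204.8 with sCAG, above all of them.

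TNFRSF10B rose 1.69-fold in HeyA8 after sCAG (log2 0.75 ± 0.04, SE; limma adjusted p = 1.48e-14) and 1.49-fold in PC3 (0.57 ± 0.04, SE; limma adjusted p = 7.71e-11). After sG5C it rose 1.41-fold in HeyA8 (0.49 ± 0.06, SE; limma adjusted p = 1.18e-08) and fell 1.38-fold in PC3 (-0.47 ± 0.06, SE; limma adjusted p = 3.51e-08). The difference between the lines in the sG5C response was -0.95 ± 0.07 (log2, SE), PC3 minus HeyA8 (edgeR adjusted p = 4.56e-15). Between sCAG and sG5C directly, edgeR gave 2.07-fold more with sCAG in PC3 (adjusted p = 3.12e-18). In HeyA8 it gave 1.19-fold more (adjusted p = 2.69e-05), a difference of 0.01 on the log2 scale (adjusted p = 0.912) with scaling to library totals.

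TNFRSF10A had 31.6, 34.6 and 33.95 RPM with sNT8 in HeyA8. It had 44.1, 46.5 and 48.4 RPM with sG5C and 26.3, 28.9 and 27.4 with sCAG, above and below every sNT8 library. In PC3 it had 51.1, 52.9 and 53.1 RPM with sNT8, 39.1, 36.7 and 38.8 with sG5C and 58.7, 62.5 and 65.7 with sCAG. The order of the short RNAs was thus reversed between the lines. After sG5C TNFRSF10A was 1.27-fold higher in HeyA8 (log2 0.34 ± 0.07, SE; limma adjusted p = 8.7e-05) and 1.32-fold lower in PC3 (-0.40 ± 0.07, SE; limma adjusted p = 8.79e-06). After sCAG it was 1.34-fold higher in PC3 (0.42 ± 0.06, SE; limma adjusted p = 9.51e-07). The fall in HeyA8 after sCAG was 1.12-fold (-0.16 ± 0.06, SE; limma adjusted p = 0.0321). That call was lost without sNT8 library B (limma adjusted p = 0.121), sNT8 library C (0.059), sCAG library A (0.157) or sCAG library C (0.0579). By edgeR TNFRSF10A was 1.42-fold lower with sCAG than with sG5C in HeyA8 (adjusted p = 1.51e-08) and 1.77-fold higher in PC3 (adjusted p = 1.39e-13). It overlaps 2 antisense genes on 224 and 266 exon bases, whose reads were 6.45% and 5.68% of its own, and TNFRSF10B overlaps RHOBTB2 on 67 bases.

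TNFRSF10D (ENSG00000173530, chromosome 8, 23135588 to 23164030, minus strand) encodes DcR2, a TRAIL receptor with a truncated death domain. In HeyA8 it had 149.6, 145.5 and 148.1 RPM with sNT8, 337.4, 358.9 and 362.3 with sG5C and 374.8, 398.2 and 409.1 with sCAG. All treated libraries lay above all sNT8 libraries. It rose 2.90-fold after sCAG (log2 1.54 ± 0.04, SE; limma adjusted p = 1.09e-20) and 2.18-fold after sG5C (1.12 ± 0.06, SE; limma adjusted p = 1.15e-16). By edgeR the level with sCAG was 1.33-fold that with sG5C (adjusted p = 2.84e-09). In PC3 the sNT8 libraries had 0 reads of 98559845, which allows up to 0.0304 RPM at 3 reads over the group. The level in HeyA8 with sNT8 was therefore at least 4854-fold higher. The PC3 sG5C group held 4 reads in all and the sCAG group 3. The TRAIL receptor genes are paralogs, but in the PC3 libraries, where TNFRSF10B had 3552 to 8860 reads, TNFRSF10D had 0 to 4. Between TNFRSF10B and TNFRSF10D on chromosome 8 lies TNFRSF10C, the gene of another decoy receptor, which had 0 to 12 reads per library. TNFRSF6B, the gene of the soluble decoy DcR3, was listed at 0 in every library. Its overlaps with other genes were not looked up, so 0 listed reads need not mean that it was not expressed.

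FADD (ENSG00000168040, chromosome 11, 70203163 to 70207390, plus strand), the adaptor gene, was read at a low level. In HeyA8 it had 4.16, 4.58 and 4.38 RPM with sNT8, 5.62, 6.35 and 5.81 with sG5C and 4.66, 4.07 and 4.66 with sCAG. In PC3 it had 8.73, 6.92 and 6.14 RPM with sNT8, 4.80, 5.22 and 5.51 with sG5C and 6.07, 5.65 and 6.44 with sCAG. The sG5C libraries lay above sNT8 in HeyA8 and below it in PC3, while sCAG overlapped sNT8 in both lines. FADD was 1.23-fold higher after sG5C in HeyA8 (log2 0.30 ± 0.13, SE; limma adjusted p = 0.0443). This call was lost without sNT8 library A (adjusted p = 0.1), B (0.0606) or C (0.0978), or without sG5C library B (0.18) or C (0.0826). In PC3 FADD was 1.33-fold lower after sG5C (-0.42 ± 0.13, SE; limma adjusted p = 0.00953), and the log2 fold change was -0.28 without sNT8 library A (limma adjusted p = 0.103). After sCAG the log2 fold changes were 0.15 ± 0.13 in HeyA8 and -0.08 ± 0.13 in PC3 (SE; limma adjusted p = 0.326 and 0.644). FADD shares 1011 of its exon bases, 54.92%, with AP000879.1, an antisense gene with 0 reads in every library. As no strand setting is given, reads in that stretch may have been assigned to neither gene. The level of FADD may therefore be understated.

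CASP8, CASP10 and CFLAR stand side by side on the plus strand of chromosome 2, with 6193 bases between CFLAR (ENSG00000003402, 201116104 to 201176687) and CASP10 (ENSG00000003400, 201182881 to 201229406). Another 4036 bases separate CASP10 from CASP8 (ENSG00000064012, 201233443 to 201287711). They did not move as a block. In PC3 after sCAG all of them rose, CASP10 by 4.38-fold, CASP8 by 2.20-fold and CFLAR by 1.64-fold. In HeyA8 after sCAG only CFLAR of the group passed the test, at 1.77-fold higher.

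CASP8 encodes the initiator caspase. In HeyA8 its libraries had 49.4, 52.2 and 49.8 RPM with sNT8, 58.6, 55.9 and 55.4 with sG5C and 46.7, 46.2 and 44.4 with sCAG. In PC3 they had 83.5, 86.5 and 86.3 RPM with sNT8, 118.8, 122.2 and 128.1 with sG5C and 164.2, 157.1 and 180.1 with sCAG. On this scale the groups did not overlap in either line, with sCAG highest in PC3 and lowest in HeyA8. In PC3 CASP8 was 2.20-fold higher after sCAG (log2 1.14 ± 0.05, SE; limma adjusted p = 5.16e-15) and 1.497-fold higher after sG5C (0.58 ± 0.06, SE; limma adjusted p = 9.25e-10). In HeyA8 the log2 fold changes were -0.02 ± 0.05 after sCAG and 0.03 ± 0.06 after sG5C (SE; limma adjusted p = 0.776 and 0.661). With scaling to library totals, as in RPM, they were -0.14 and 0.17 and passed (limma adjusted p = 0.0185 and 0.00877). The response was larger in PC3 by 1.17 ± 0.07 after sCAG and by 0.57 ± 0.07 after sG5C (log2, SE; edgeR adjusted p = 1.21e-17 and 1.65e-08). By edgeR, CASP8 in PC3 was 1.48-fold higher with sCAG than with sG5C (adjusted p = 8.5e-11).

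CASP10 encodes the close relative of caspase-8 that is recruited by FADD as well. In HeyA8 it had 38 to 42 reads per library with sNT8, or 1.07, 1.10 and 1.00 RPM. With sG5C it had 0.759, 0.876 and 0.573 RPM and with sCAG 1.01, 0.758 and 1.04. In PC3 it had 6.93, 8.07 and 9.69 RPM with sNT8, 5.36, 6.02 and 5.34 with sG5C and 29.9, 32.04 and 33.5 with sCAG. The PC3 sCAG libraries lay far above the rest. CASP10 was 4.38-fold higher there than with sNT8 (log2 2.13 ± 0.10, SE; limma adjusted p = 3.23e-13). By edgeR it was 6.20-fold higher than with sG5C (2.63 ± 0.10, SE; adjusted p = 2.23e-20). After sG5C it was 1.41-fold lower in PC3 (-0.49 ± 0.13, SE; limma adjusted p = 0.00192). In HeyA8 it was 1.57-fold lower after sG5C (-0.65 ± 0.27, SE; limma adjusted p = 0.0405). That call was lost without sNT8 library A or B (limma adjusted p = 0.1 each) or C (0.0605), and without sG5C library A (0.0649) or C (0.166). It was also lost with edgeR (adjusted p = 0.0571) and DESeq2 (0.111). With scaling to library totals, as in RPM, the log2 fold change was -0.52 and did not pass (limma adjusted p = 0.1). After sCAG in HeyA8 the log2 fold change was -0.07 ± 0.24 (SE; limma adjusted p = 0.832).

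CFLAR, the gene of the inhibitor c-FLIP, had 65.8, 75.0 and 76.1 RPM with sNT8 in HeyA8. It had 76.4, 70.5 and 73.8 RPM with sG5C, within that range apart from 1 library just above it, and 114.5, 118.0 and 119.2 with sCAG. In PC3 it had 74.7, 73.3 and 82.1 RPM with sNT8, 72.4, 77.3 and 85.2 with sG5C and 108.0, 109.2 and 116.8 with sCAG. In both lines the sCAG libraries were above all others and sG5C overlapped sNT8. CFLAR rose 1.77-fold after sCAG in HeyA8 (log2 0.82 ± 0.05, SE; limma adjusted p = 8.96e-14) and 1.64-fold in PC3 (0.71 ± 0.05, SE; limma adjusted p = 3.95e-11). After sG5C its log2 fold change was -0.10 ± 0.06 in HeyA8 and 0.09 ± 0.06 in PC3 (SE; limma adjusted p = 0.137 and 0.264). The HeyA8 value was -0.15 without sNT8 library A and then passed (limma adjusted p = 0.0448). By edgeR, sCAG gave 1.89-fold more CFLAR than sG5C in HeyA8 (adjusted p = 2.78e-17) and 1.55-fold more in PC3 (adjusted p = 2.48e-11).

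The ratio of CFLAR to CASP8 reads within a library does not depend on scaling between libraries. In HeyA8 it was 1.33, 1.44 and 1.53 with sNT8, 1.30, 1.26 and 1.33 with sG5C and 2.45, 2.55 and 2.69 with sCAG. In PC3 it was 0.894, 0.847 and 0.952 with sNT8, 0.609, 0.633 and 0.665 with sG5C and 0.658, 0.695 and 0.648 with sCAG. The ratio with sCAG was thus above every sNT8 library in HeyA8 and below every one in PC3. The log2 ratio differed from sNT8 by 0.84 ± 0.07 after sCAG in HeyA8, and by -0.43 ± 0.06 in PC3 (SE; exact two-sided permutation p = 0.1 each, adjusted p = 0.12 over 6 ratio comparisons). After sG5C it differed by -0.14 ± 0.06 in HeyA8 (exact permutation p = 0.2, adjusted p = 0.2) and by -0.50 ± 0.06 in PC3 (exact permutation p = 0.1, adjusted p = 0.12). The smallest p that 3 against 3 libraries allow is 0.1, so no ratio could pass 0.05.

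The ratio of TNFRSF10D to TNFRSF10B reads in HeyA8, decoy to death receptor, was 0.699, 0.619 and 0.625 with sNT8. It was 1.01, 1.00 and 0.993 with sG5C and 1.09, 1.13 and 1.12 with sCAG, and the 3 groups did not overlap. The log2 ratio differed from sNT8 by 0.63 ± 0.06 after sG5C and 0.78 ± 0.06 after sCAG (SE; exact two-sided permutation p = 0.1 each, adjusted p = 0.12).

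**Figure D3:**
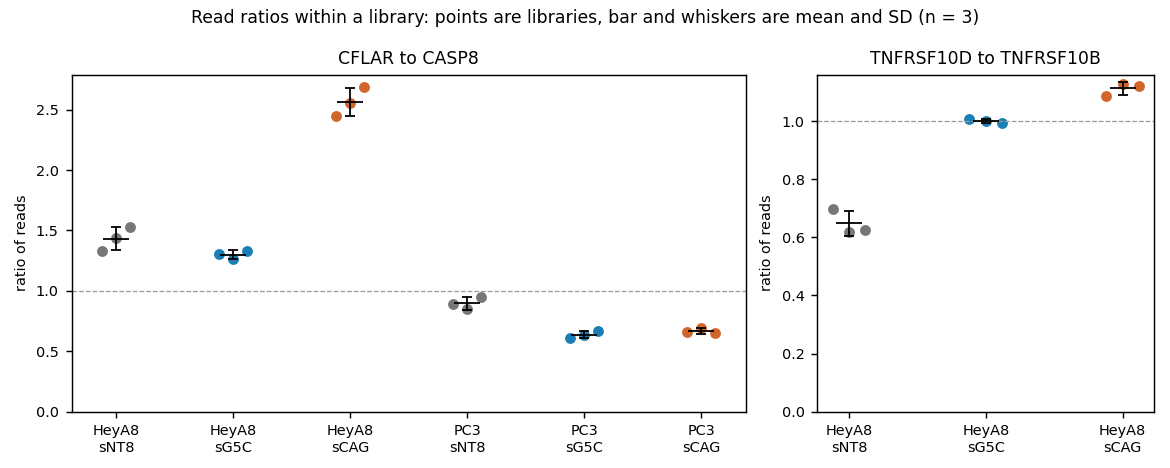
Ratio of CFLAR to CASP8 reads in the 6 groups and of TNFRSF10D to TNFRSF10B reads in the 3 HeyA8 groups (vertical axes, linear, from 0). Points are libraries, the bar and whiskers are the mean and SD, and the dashed line marks equal reads. In HeyA8 with sCAG the first ratio lies between 2.45 and 2.69, and in PC3 with sCAG between 0.648 and 0.695.

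Scaled also by exon length (RPM per kilobase, RPKM), TNFRSF10B and TNFRSF10D led in HeyA8 with sNT8, at 44.3 ± 2.5 and 41.8 ± 0.6 RPKM (SD, n = 3), and their libraries overlapped. TNFRSF10A had 11.3 ± 0.5, FAS 8.41 ± 0.31, CASP8 6.97 ± 0.21 and FADD 2.37 ± 0.11 RPKM, and CASP10 0.139 ± 0.006. In PC3 with sNT8 the order was TNFRSF10B at 30.3 ± 0.5 RPKM, TNFRSF10A at 17.7 ± 0.4, CASP8 at 11.8 ± 0.2, FADD at 3.95 ± 0.72, FAS at 2.42 ± 0.27 and CASP10 at 1.08 ± 0.18. CFLAR, at 3.21 ± 0.25 RPKM in HeyA8 and 3.40 ± 0.21 in PC3, was scaled by 22529 annotated exon bases, which lowers its value against genes with shorter annotation. FADD may be undercounted for its antisense overlap, so its place in the order is uncertain.

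Between the lines with sNT8, all 9 members tested by edgeR passed, where 71.3% of all genes did. The 9 include TNFRSF10D, with 0 reads in the PC3 sNT8 libraries, and TNFSF10, hardly read in HeyA8. Each of these was kept in the test by its reads in 1 line, so its call adds no separate support. The same 9 members were tested for the responses. FAS was 4.15-fold lower in PC3 than in HeyA8 (log2 -2.05 ± 0.08, SE; adjusted p = 3.29e-24) and TNFRSF10B 1.74-fold lower (edgeR adjusted p = 6.01e-19). CASP10 was 6.50-fold higher in PC3 (2.70 ± 0.15, SE; edgeR adjusted p = 4.78e-20), CASP8 1.42-fold (adjusted p = 8.24e-12), FADD 1.40-fold (adjusted p = 8.51e-04) and TNFRSF10A 1.31-fold (adjusted p = 2.06e-07). TNFSF10 was 3.86-fold higher (adjusted p = 3.77e-05), from 2 to 10 reads per library in HeyA8. CFLAR was 1.12-fold lower in PC3 (log2 -0.17; edgeR adjusted p = 0.0064), but with scaling to library totals its log2 difference was 0.09 (adjusted p = 0.181). The labels do not state whether both lines were handled at the same time.

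The response to sCAG differed between the lines for 4 of 9 members tested by edgeR, against 37.1% of all genes. They were TNFSF10, CASP10, CASP8 and TNFRSF10A, and all of them were higher in PC3. TNFSF10 and TNFRSF10D were again kept in the test by their reads in 1 line, so the TNFSF10 call adds no separate support. Of all genes tested, 22.1% were called higher in PC3, and these were 5996 of the 10052 called. For FAS the difference, PC3 minus HeyA8, was 0.11 ± 0.11 (log2, SE; edgeR adjusted p = 0.495), for CFLAR -0.09 ± 0.08 (adjusted p = 0.367) and for FADD -0.23 ± 0.18 (adjusted p = 0.34), which does not show that the lines respond alike. For TNFRSF10B it was -0.16 ± 0.07 (adjusted p = 0.0542). That difference passed with a replicate block (-0.16, edgeR adjusted p = 0.0328), giving 5 of 9 members, with library totals (-0.23, 0.00346) and with a stricter filter (-0.21, 0.00723). It also passed without HeyA8 sCAG library A (edgeR adjusted p = 0.0322) or B (0.0471), or without PC3 sCAG library B (0.0271). The response to sG5C differed for 6 of 9 members, against 32.8% of all genes. TNFRSF10A, TNFRSF10B and FADD had a lower response in PC3, and CASP8, CFLAR and TNFSF10 a higher one. TNFSF10 had 0, 3 and 1 reads in the HeyA8 sG5C libraries, so no size is given for it and its call adds no separate support. For FAS the difference was -0.10 ± 0.13 (log2, SE; adjusted p = 0.591) and for CASP10 0.17 ± 0.26 (adjusted p = 0.672).

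Set directly against sG5C, sCAG gave higher levels of all 8 members tested in PC3 (edgeR), where 62.7% of all genes passed and 31.6% were higher. FADD had the smallest size among them, 1.27-fold (adjusted p = 0.0235). Its call was lost without sG5C library A (adjusted p = 0.0693) or sCAG library C (0.0806). In HeyA8, 5 of 8 members passed, against 65.2% of all genes. FAS, CFLAR, TNFRSF10D and TNFRSF10B were higher and TNFRSF10A was lower with sCAG. CASP10 was at 1.51-fold (log2 0.59 ± 0.28, SE; edgeR adjusted p = 0.062), and passed without sG5C library B (adjusted p = 0.0366) or sCAG library B (0.0375). CASP8 had a log2 difference of -0.06 ± 0.05 and FADD of -0.16 ± 0.12 (SE; edgeR adjusted p = 0.33 and 0.262). With scaling to library totals these were -0.31 and -0.41 and passed (edgeR adjusted p = 4.41e-06 and 0.00473).

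Of 38 other genes of the pathway, 34 were tested in HeyA8 and 32 in PC3, in 3 lists of receptors and ligands, of adaptors and inhibitors, and of proteins downstream of caspase-8. After sCAG in HeyA8, 25 passed limma's test, 18 higher and 7 lower, with a median log2 fold change of 0.18, where 59.3% of all genes passed. Over all 21980 genes tested, 6440 were called higher and 6601 lower. Of the receptors and ligands 2 of 6 rose and 2 fell, of the adaptors and inhibitors 10 of 19 rose and 4 fell, and downstream of caspase-8 6 of 9 rose and 1 fell. TNFRSF11B, whose product osteoprotegerin binds TRAIL in solution, had 2618 ± 151 normalized counts in the sNT8 libraries and 7350 ± 364 in the sCAG libraries (SD, n = 3), a 2.81-fold rise. The ligand genes TNF and TNFSF15 fell 2.47-fold and 2.22-fold. The deubiquitinase genes CYLD and TNFAIP3 rose 2.09-fold and 1.94-fold, and TRADD, the adaptor gene of TNF receptor 1, rose 1.73-fold. The limma adjusted p of these genes was at most 8.18e-08.

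After sG5C in HeyA8, 29 of the 34 passed, 11 higher and 18 lower, with a median of -0.17, where 52.5% of all genes passed. Over all 22354 genes tested, 5496 were called higher and 6239 lower. Of the 6 receptors and ligands 5 fell and 1 rose, and of the 19 adaptors and inhibitors 11 fell and 5 rose. Downstream of caspase-8 the balance was the other way, with 5 of 9 higher and 2 lower and a median of 0.28. TNFRSF11B had 2780 ± 161 normalized counts with sNT8, as scaled in this table, and 586.4 ± 32.7 with sG5C (SD, n = 3), a 4.73-fold fall, and TNFRSF1A, the gene of TNF receptor 1, fell 2.11-fold. APAF1, the scaffold gene of the apoptosome, fell 1.80-fold and MLKL, the executor gene of necroptosis, fell 1.75-fold. BIRC3, which encodes the ubiquitin ligase cIAP2, rose 3.38-fold and TNFAIP3 2.42-fold, both known as NF-kB targets. The limma adjusted p of these genes was at most 6.68e-06.

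In PC3 after sCAG, 26 of 32 passed, 22 higher and 4 lower, with a median of 0.38, where 50.5% of all genes passed. Over all 23130 genes tested, 6344 were called higher and 5345 lower. Of the 4 receptors and ligands 3 rose and 0 fell, of the 19 adaptors and inhibitors 15 rose and 2 fell, and downstream of caspase-8 4 of 9 rose and 2 fell, with a median of 0.09. BIRC3 had 89.97 ± 4.83 normalized counts in the sNT8 libraries and 760.7 ± 80.0 in the sCAG libraries (SD, n = 3), an 8.35-fold rise. BIRC2, of cIAP1, rose 1.97-fold and XIAP, which encodes a caspase inhibitor, 2.04-fold. TNFAIP3 rose 3.61-fold and MLKL 2.27-fold. The limma adjusted p of these genes was at most 1.38e-11.

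In PC3 after sG5C, 27 of 32 passed, 16 higher and 11 lower, with a median of 0.14, where 57.9% of all genes passed. Over all 23731 genes tested, 6784 were called higher and 6953 lower. Of the 4 receptors and ligands 1 rose and 1 fell, of the 19 adaptors and inhibitors 9 rose and 7 fell, and downstream of caspase-8 6 of 9 rose and 3 fell. BIRC3 had 88.9 ± 4.4 normalized counts with sNT8 and 1423 ± 130 with sG5C (SD, n = 3), a 15.8-fold rise. TNFAIP3 rose 2.84-fold and the initiator caspase gene CASP9 1.67-fold. SHARPIN, of the linear ubiquitin ligase complex, fell 1.94-fold and DAXX, which encodes a FAS-binding protein, 1.72-fold. The limma adjusted p of these genes was at most 1.04e-07.

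**Figure D4:**
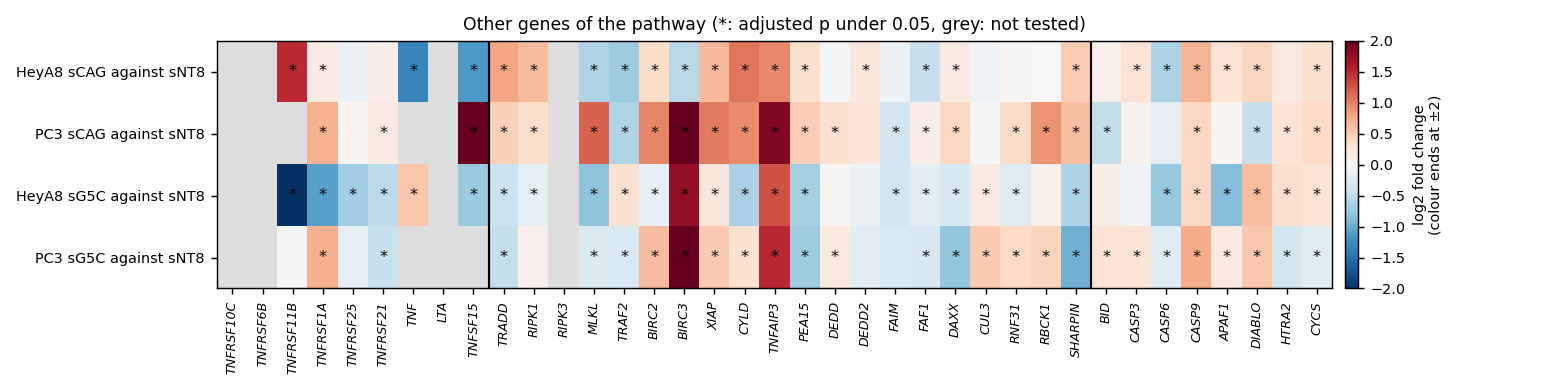
Limma log2 fold change against sNT8 (colour, ending at ±2) of other pathway genes (columns, in 3 lists) in the 4 comparisons (rows). Asterisks mark an adjusted p under 0.05, and grey marks genes not tested. TNFAIP3 is higher in all 4 comparisons (1.94-fold to 3.61-fold), and BIRC3 is higher in all but HeyA8 with sCAG, where it is 1.47-fold lower.

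Over the 18 libraries, with the mean of each line removed, the genes of 11762 whose log2 RPM was most like that of FAS were ATP10D (Pearson r = 0.99), TSPAN1 (0.98), CHURC1 (0.98), EP300 (0.98) and OTUD7B (0.98). Among the members, CFLAR was nearest to FAS, at 0.90, followed by CASP10 at 0.75. For TNFRSF10B they were PNMA1 (0.96), SLC38A2 (0.96), SOCS3 (0.94), ETS2 (0.94) and PTBP3 (0.94). FAS had an r of 0.66 with TNFRSF10B. These correlations describe libraries that share groups and depth, and carry no test. The longest run of CTG units in the members' annotated transcripts was 3, in CFLAR, whereas 127 of 19873 protein-coding genes, 0.639%, had a run of at least 6.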

How the data were processed

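Members and gene lists were chosen with earlier results of these data known. Per the labels' protocols, total RNA was isolated on columns with DNase treatment and made into total RNA libraries. The submitters' processing notes name TopHat, Bowtie2, HTSeq, DESeq2 and hg38, with no version and no strand setting.

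The authors deposited 4 tables, each with a signal, counts divided by DESeq2 size factors, for the 6 libraries of 1 comparison with sNT8. The authors' deposited log2 fold changes, p-values and test statistic (a score) were not used for any result. All values (100%) gave whole reads within 1e-06 of a step per library, and these reads gave RPM, ratios and the edgeR tests. Each short RNA was set against sNT8 with limma 3.58.1 in R 4.3.3 (robust trend, log2 of the value plus 1, filterByExpr with a count minimum of 10), so folds of low genes are understated. Comparisons across tables used edgeR 4.0.16 (TMM, quasi-likelihood) on 9 libraries of a line or on all 18. The SE given with edgeR is derived, as the absolute log2 fold change divided by the square root of the test's F statistic. Adjusted p (Benjamini-Hochberg, all genes) had to be under 0.05. DESeq2 1.42.0, other scalings, pseudocounts and filters, and leaving out libraries were alternatives. Ratios were compared 6 times, since TNFRSF10D was near 0 in PC3. Exon lengths came from GENCODE. Scripts were tested on simulated data.

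All members were named. Other pathway genes were named when among the 6 largest changes past the threshold, with at least 5 RPM in the higher group and no overlap, and 1 gene that this rule names is not reported here. Line differences are sized only where every group had at least 0.1 RPM, a limit chosen after the values were seen.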

Additional observations from a re-analysis of the deposited data

Results flagged for a closer look

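The following differences between the lines in the response to a short RNA passed edgeR's test of the interaction over 18 libraries. They are log2 differences, PC3 minus HeyA8, and every member with such a call is given except TNFSF10 after sG5C, which had 0 to 3 reads in the HeyA8 sG5C libraries.

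After sCAG the difference was 5.22 for TNFSF10 (adjusted p = 4.03e-08), which had 2 to 10 reads per library in HeyA8 in these groups, so its size is uncertain. TNFSF10 was kept in the test by its reads in PC3, so its call adds no separate support. The difference was 2.20 for CASP10 (adjusted p = 2.87e-10), 1.17 for CASP8 (adjusted p = 1.21e-17) and 0.59 for TNFRSF10A (adjusted p = 2.02e-07).

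After sG5C the difference was -0.95 for TNFRSF10B (adjusted p = 4.56e-15), -0.72 for TNFRSF10A (adjusted p = 3.74e-09) and -0.72 for FADD (adjusted p = 0.00131). It was 0.57 for CASP8 (adjusted p = 1.65e-08) and 0.21 for CFLAR (adjusted p = 0.0325). The CFLAR call was lost with library totals (0.00, adjusted p = 1.0). It was also lost without HeyA8 sNT8 library B (0.19, adjusted p = 0.0924) or C (0.18, 0.102), HeyA8 sG5C library B (0.19, 0.0869), PC3 sNT8 library A (0.19, 0.0851) or B (0.18, 0.0954), or PC3 sG5C library B (0.21, 0.0518) or C (0.17, 0.102).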

How the results depend on the processing

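Over 71 member values, 976 of 1030 alternative values kept direction and side of the threshold, 35 lost and 13 gained a call, and 6 reversed. Scaling to library totals reversed CFLAR after sG5C in HeyA8 (0.0278), CFLAR between the sNT8 groups (0.0857) and CASP10 in the difference of the sG5C responses (-0.0362), none of them past the threshold under that scaling. Library totals moved the median log2 change of all genes to -0.11 in HeyA8 after sCAG, 0.14 in HeyA8 after sG5C, -0.17 in PC3 after sCAG, -0.30 and -0.16 for sCAG against sG5C in HeyA8 and PC3, -0.20 for the difference of the sG5C responses and 0.35 for the sNT8 groups, against -0.05 to 0.10 before. Calls over all genes then split into 5094 higher and 7911 lower in HeyA8 after sCAG (6440 and 6601 before), 7425 and 4834 after sG5C (5496 and 6239), and 4130 and 7998 in PC3 after sCAG (6344 and 5345). They were 5317 and 10425 for HeyA8 sCAG against sG5C (7385 and 7762), 3213 and 6517 for the sG5C responses (4949 and 3945) and 12655 and 6939 for the sNT8 groups (10448 and 8874).

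Leaving out 1 library at a time turned the sign of uncalled values: CASP8 in HeyA8 after sCAG ranged from -0.0437 to 0.0008, CASP10 there from -0.15 to 0.0726 and FADD in PC3 after sCAG from -0.19 to 0.06. FADD between sCAG and sG5C in PC3 also lost its call with library totals (adjusted p = 0.144) and a stricter filter (0.0507), FADD in HeyA8 after sG5C with DESeq2 (0.0634), and, with no filter, that value (0.0876), TNFRSF10A after sCAG (0.0701) and CASP10 after sG5C (0.0732) in HeyA8. Same-lettered libraries correlated at -0.03 to 0.13 over 18 pairs and other letters at -0.09 to 0.04, and 30 of 36 were nearest to their own letter, a hint from the data. Among same-lettered pairs only PC3 sNT8 A with PC3 sCAG A, at 0.129, was over the limit of 0.1. The letters were therefore not treated as pairing, which does not show that the libraries were unpaired. With a replicate block, TNFRSF10B passed in the difference of the sCAG responses (-0.16, adjusted p = 0.0328), giving 5 members called, and no other member's call changed. The cause of these changes was not tested. FASLG, TNFSF10 in HeyA8 and TNFRSF10D in PC3 were limited by depth.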
